A study of Homo sapiens with 6 samples.

Results

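The signal recognition particle (SRP) set holds 10 genes of the 28395 in the count table. They are the 7SL RNA genes RN7SL1 and RN7SL2, the SRP protein genes SRP9, SRP14, SRP19, SRP54, SRP68 and SRP72, and the receptor genes SRPRA and SRPRB. Membership was defined by gene identity, but the set was proposed with the control and ZEB1 values of these libraries in view. Its values in that contrast are therefore a description and carry no test of the set. All 10 members passed the low-count filter, which kept 11329 genes.

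The libraries came from TC28a2, an immortalised human chondrocyte line, collected 48 h after transfection. One group of 3 libraries received a control vector and the other group of 3 a vector overexpressing ZEB1, a zinc finger transcription factor. RNA was profiled by DRUG-seq, a low-cost, high-throughput form of RNA-seq. The labels do not tell whether the replicates were separate cultures, so the spread between libraries may be technical.

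SRP is a ribonucleoprotein that binds the signal sequence of a nascent secretory or membrane protein on the ribosome and brings the ribosome to its receptor on the endoplasmic reticulum (ER). 7SL RNA is its scaffold, made by RNA polymerase III and ending without the poly(A) tail of an mRNA. SRP9 and SRP14 bind the Alu domain of 7SL, which slows translation, while SRP19, SRP54, SRP68 and SRP72 sit on the S domain, where SRP54 reads the signal sequence. Chondrocytes secrete much of the cartilage matrix through this route.

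The targeted gene matched the label of each library. Counts of ZEB1 were 203, 114 and 131 after the control vector (replicates 1, 2 and 3) and 13805, 21844 and 23143 after the ZEB1 vector. Depth was 5359200 to 5878640 counts in the controls and 1277632, 1621270 and 3316228 in ZEB1 replicates 1, 2 and 3. Of 12 chondrocyte markers, 11 had at most 20 counts in all 6 libraries together, ACAN and COL2A1 among them, while SOX9 had 1605. The summed level of 10 leukocyte markers was 181 to 207 CPM in the controls and 176 to 261 CPM with ZEB1. The endothelial, neuronal and epithelial sums likewise overlapped between the groups. In bulk RNA, a change in the number of cells of a kind and a change in RNA per cell cannot be told apart.

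The 7SL copies are so alike that the counting could have moved reads between them. RN7SL1 and RN7SL2 both lie on chromosome 14, and their transcripts are 299 and 300 bases long (GENCODE v29, GRCh38). They differed at 4 of 299 positions, so 98.7% matched, and the longest identical stretch held 205 bases. Of the windows of 75 bases in RN7SL1, 58.2% also occurred in RN7SL2, and 22.7% occurred in no other GENCODE v29 transcript on either strand once a second entry for the same locus was set aside. For RN7SL2 the share without another match was 15.9%. Another copy, RN7SL3, differed from RN7SL1 at 7 positions and had no row in the count table, which held 2 of the 687 7SL genes and pseudogenes in the RefSeq table. How reads matching several copies were counted is not given in the sources used here, so the split between RN7SL1 and RN7SL2 is uncertain and their sum is given beside each.

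7SL RNA had the largest difference in counts between the groups among the 10 genes. How RNA without the poly(A) tail of an mRNA was captured in these libraries is not given here. The 7SL counts may therefore not follow its amount in the cells, which was not tested. RN7SL1 stood at 249.9, 406 and 316 CPM (counts scaled to a common library size, with TMM factors) in control replicates 1, 2 and 3. With the ZEB1 vector it stood at 661, 731 and 428 CPM in replicates 1, 2 and 3. The groups did not overlap, and ZEB1 replicate 3 was only just above control replicate 2. The group means were 324 ± 78.2 CPM and 607 ± 159 CPM (SD, n = 3 each), a log2 fold change of 0.90 (SE 0.20), or 1.87-fold.

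RN7SL2, which may share reads with RN7SL1, followed the same course. Its control level was 217, 372 and 334 CPM, and its level after the ZEB1 vector was 644, 576 and 426 CPM (replicates 1, 2 and 3). Again the groups did not overlap, and again ZEB1 replicate 3 was the closest to the controls. Its log2 fold change was 0.83 (SE 0.19), or 1.78-fold. The summed level of both genes was 631 ± 156 CPM in the controls and 1155 ± 261 CPM with ZEB1 (SD, n = 3 each), a ratio of means of 1.83.

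As a share of all gene counts, which needs no scaling factor, 7SL took 0.0499%, 0.0796% and 0.0677% in control replicates 1, 2 and 3. The exact Clopper-Pearson 95% intervals were 0.0481 to 0.0517%, 0.0772 to 0.0820% and 0.0656 to 0.0698%. The ZEB1 libraries gave 0.115% (0.109 to 0.121%), 0.125% (0.120 to 0.131%) and 0.0864% (0.0833 to 0.0896%) in replicates 1, 2 and 3. These intervals cover counting error only, and the controls differed from each other by more than their intervals. The group means were 0.0657 ± 0.0150% and 0.109 ± 0.0202% (SD, n = 3 each).

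The balance of the 7SL copies stayed near even in each library, though reads matching both may have been counted for either copy. RN7SL2 made up 46.4%, 47.8% and 51.4% of 7SL counts in the controls and 49.4%, 44.1% and 49.9% in the ZEB1 libraries. The means of 48.5 ± 2.54% and 47.8 ± 3.21% (SD, n = 3 each) differed by less than the spread within either group.

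**Figure D1:**
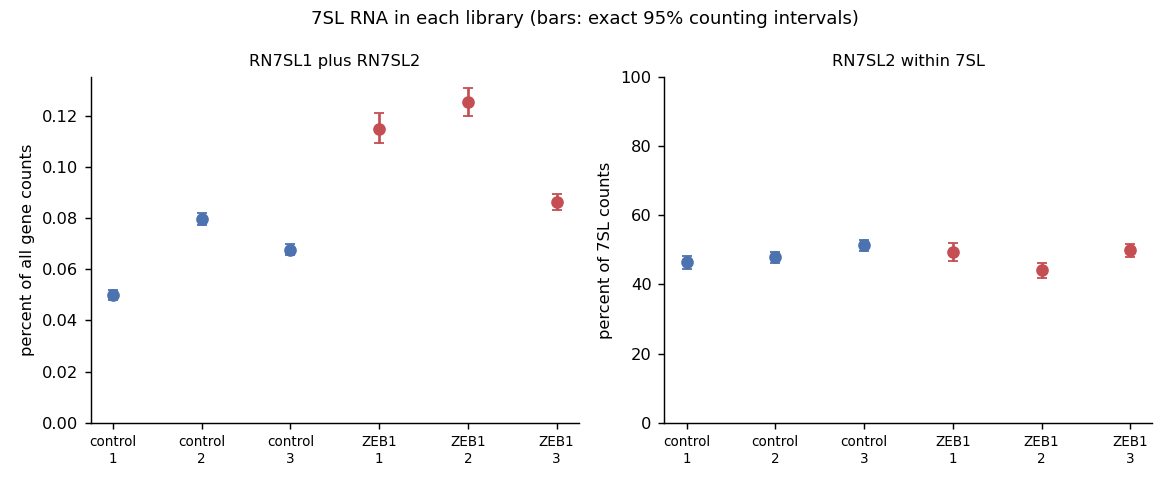
Left, RN7SL1 plus RN7SL2 as a percent of all gene counts in each library. Right, RN7SL2 as a percent of 7SL counts; bars are exact 95% counting intervals, controls are blue and ZEB1 libraries red. The ZEB1 libraries sit at 0.0864 to 0.125% against 0.0499 to 0.0796% in the controls, while the right panel stays between 44.1% and 51.4%.

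RN7SL1 lies inside the annotated span of RPS29, a small-subunit ribosomal protein gene on the opposite strand (GENCODE v29), and the strand setting of the counting is not given. RPS29 was at 2623, 3457 and 2488 CPM after the control vector and 6531, 4634 and 3222 CPM after the ZEB1 vector (replicates 1, 2 and 3), with a log2 fold change of 0.75 (SE 0.21). Its groups overlapped, since ZEB1 replicate 3 fell below control replicate 2. RN7SL2 lies inside the span of LOC105378179 in the RefSeq table, a long noncoding RNA gene with no row in the count table. The part of these overlaps in the 7SL values was not tested.

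Of the Alu domain proteins, SRP9, which pairs with SRP14 on 7SL, had 114, 116 and 121 CPM in control replicates 1, 2 and 3. In ZEB1 replicates 1, 2 and 3 it had 194, 204 and 117 CPM. Replicates 1 and 2 were thus well above the controls, and replicate 3 lay among them. The log2 fold change was 0.54 (SE 0.19). SRP14 stood at 462, 456 and 542 CPM in the controls and at 714, 679 and 471 CPM with ZEB1. As for SRP9, replicates 1 and 2 were high and replicate 3 was within the control range, and the log2 fold change was 0.35 (SE 0.17). With ZEB1 replicate 3 as the sole ZEB1 library, the log2 fold changes were -0.01 for SRP9 and -0.05 for SRP14.

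SRP19, which helps 7SL take the fold that SRP54 binds, had 129, 125 and 139 CPM in the controls. It had 197, 208 and 147 CPM in ZEB1 replicates 1, 2 and 3. It was the one protein-coding member whose groups did not overlap, by a narrow margin in replicate 3, and its log2 fold change was 0.48 (SE 0.17). SRP54, the GTPase that recognises the signal sequence, had 46.4, 61.4 and 51.1 CPM in the controls and 61.3, 53.4 and 64.9 CPM with ZEB1, with overlapping groups and a log2 fold change of 0.18 (SE 0.21).

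The paired subunits SRP68 and SRP72, which bind 7SL as a heterodimer, showed little difference. SRP72 had 1593, 1378 and 1532 counts in control replicates 1, 2 and 3, or 252 ± 2.90 CPM (SD, n = 3). The ZEB1 libraries gave 219, 277 and 263 CPM, a range that holds the control mean. Its log2 fold change was 0.01 (SE 0.15). SRP68 had 73.0, 54.9 and 68.2 CPM in the controls and 64.9, 49.5 and 56.6 CPM with ZEB1, with overlapping groups and a log2 fold change of -0.20 (SE 0.21).

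The receptor subunits diverged from each other. SRPRA, the GTPase subunit that docks with SRP54, had 73.6, 54.5 and 64.1 CPM in control replicates 1, 2 and 3. ZEB1 replicates 1, 2 and 3 gave 35.5, 30.2 and 60.2 CPM, from 40, 47 and 202 counts. Replicates 1 and 2 lay below all controls and replicate 3 lay among them. The log2 fold change was -0.57 (SE 0.25), the lowest of the 10 genes. SRPRB, the membrane-anchored subunit, had 151, 158 and 155 CPM in the controls and 140.4, 160.1 and 163 CPM with ZEB1. Its groups overlapped, and the log2 fold change was 0.00 (SE 0.15).

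In the RefSeq annotation (GRCh38.p14) SRP9 spans chromosome 1 from 225777826 to 225790464, SRP14 chromosome 15 from 40035690 to 40039202 and SRP19 chromosome 5 from 112861287 to 112898371. SRP54 spans chromosome 14 from 34982992 to 35029567, SRP68 chromosome 17 from 76038785 to 76072517 and SRP72 chromosome 4 from 56467617 to 56503681. SRPRA spans chromosome 11 from 126235930 to 126268895 and SRPRB chromosome 3 from 133784023 to 133828574.

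**Figure D2:**
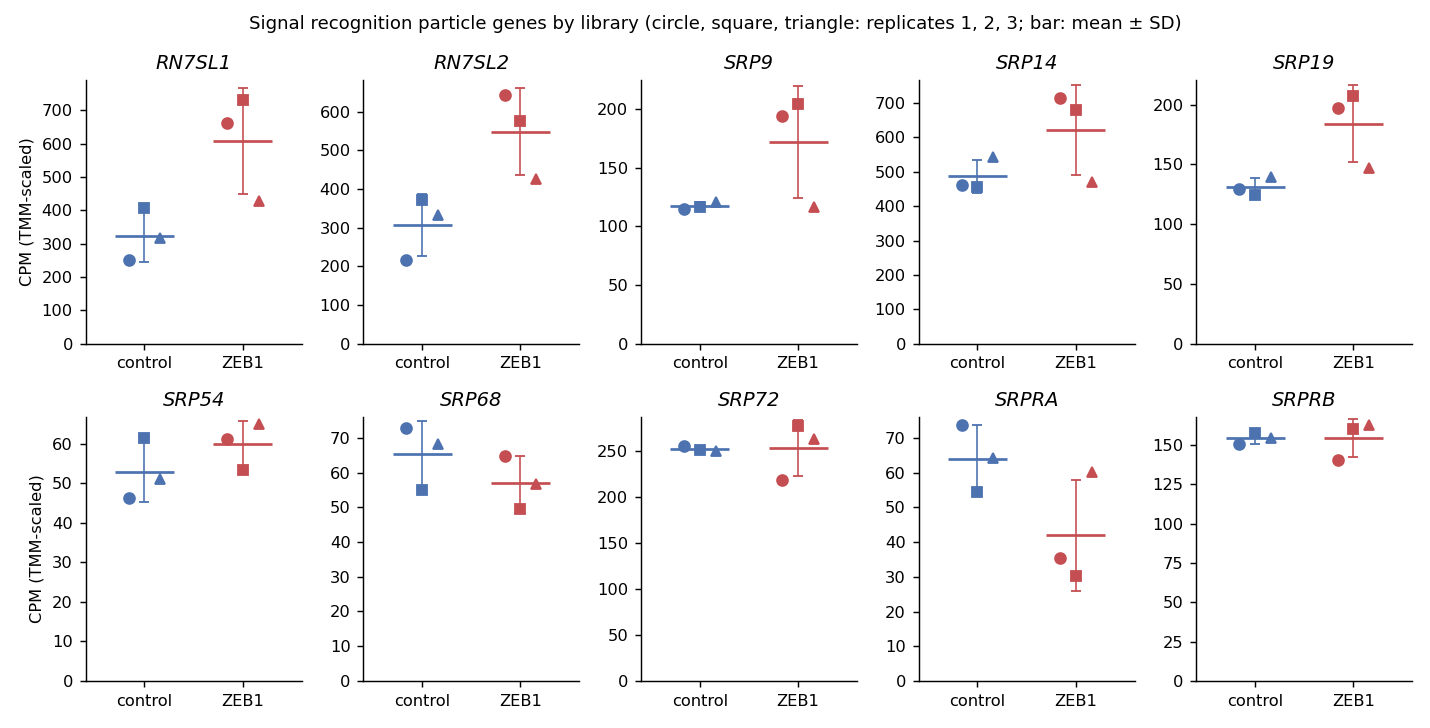
TMM-scaled CPM of each of the 10 genes (vertical axes from 0, one scale per gene) in control (blue) and ZEB1 (red) libraries, with circles, squares and triangles for replicates 1, 2 and 3 and bars for the mean ± SD (n = 3). ZEB1 replicate 3 is the nearest ZEB1 library to the control mean in RN7SL1, RN7SL2, SRP9, SRP14, SRP19 and SRPRA.

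Shares within a library show the same order without any scaling between libraries. SRP9 and SRP14 made up 53.4%, 53.7% and 56.6% of the counts of the 6 SRP protein genes in the controls. In ZEB1 replicates 1, 2 and 3 they made up 62.6%, 60.1% and 52.5%, so replicates 1 and 2 were above and replicate 3 below the controls. SRPRA made up 32.8%, 25.6% and 29.3% of receptor counts in the controls and 20.2%, 15.9% and 27.0% with ZEB1. The 7SL genes held 26.3%, 37.9% and 31.8% of the counts of all 10 genes in the controls and 44.5%, 44.0% and 38.9% with ZEB1. This last share did not overlap between the groups, by a narrow margin between ZEB1 replicate 3 and control replicate 2. These shares compare libraries and are no molar ratios.

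**Figure D3:**
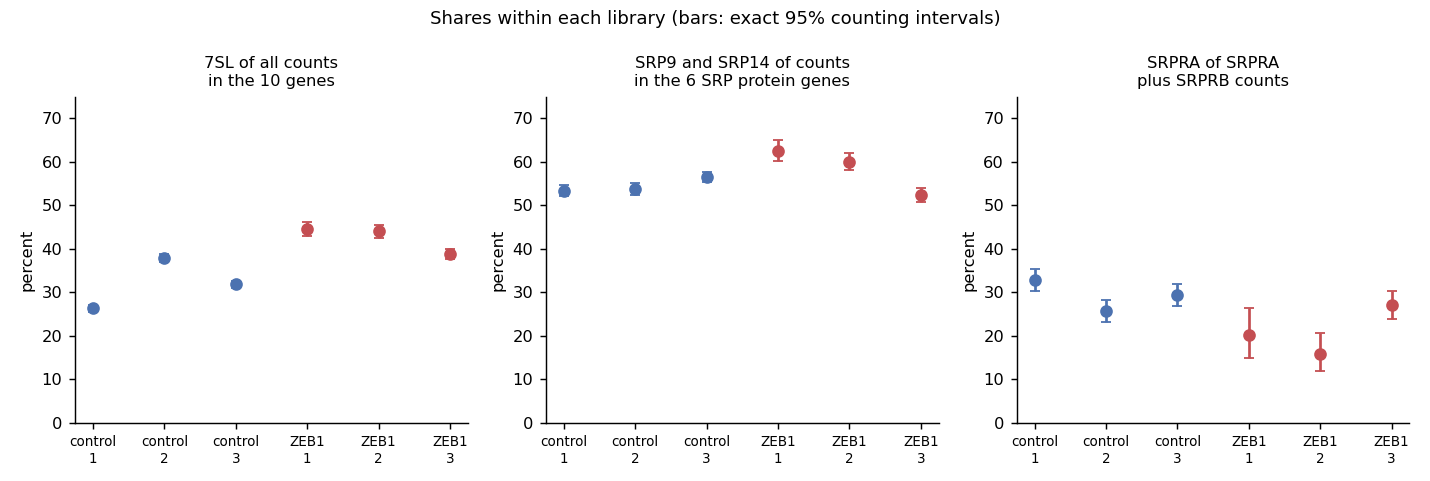
Shares by library: 7SL of the counts in all 10 genes, SRP9 plus SRP14 of the counts in the 6 SRP protein genes, and SRPRA of receptor counts. Vertical axes are in percent, bars are exact 95% counting intervals, controls are blue and ZEB1 libraries red. ZEB1 replicates 1 and 2 stand apart from the controls in each panel (44.5% and 44.0%, 62.6% and 60.1%, 20.2% and 15.9%), and replicate 3 stands closer to them.

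The counting rules give 3 of 10 members (RN7SL1, RN7SL2 and SRP19) with all ZEB1 libraries above all controls, against 6.96% of all genes tested, and 0 of 10 below, against 8.16%. In edgeR's quasi-likelihood test 0 of 10 members passed an adjusted p of 0.05 over all genes, against 0.00883% of genes tested, which is ZEB1 alone. Without adjustment, 6 of 10 members had an edgeR p under 0.05, against 9.4% of genes tested. Of these, 5 were higher (5.83% of genes) and 1 was lower (3.57%). The edgeR adjusted p was 0.161 for each 7SL gene, 0.304 for SRP19, 0.328 for SRP9, 0.499 for SRPRA and 0.528 for SRP14. The 7SL genes may share reads, so they may not be separate observations in these counts or in the calls below. Because the set was chosen with this contrast known, nothing is read from these shares.

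Which members were called depended on the method and on a single library, ZEB1 replicate 3. By DESeq2 the calls were RN7SL1 and RN7SL2 (adjusted p = 0.00356 and 0.00680), as it did 7.49% of the 2324 genes to which it gave an adjusted p. It gave none to SRP54, SRP68 and SRPRA, which it therefore could not call. Both were also called by limma-voom (adjusted p = 0.0122 and 0.0144), which called 0.512% of genes, and by edgeR without a low-count filter (adjusted p = 0.000194 and 0.000606), which called 0.693%. Without ZEB1 replicate 3, edgeR called 5 members, RN7SL1, RN7SL2, SRP9 and SRP19 higher and SRPRA lower, and 3.38% of all genes. Under that setting the log2 fold changes were 1.10, 0.98, 0.76, 0.62 and -0.98 in the same order. With replicate 3 as the sole ZEB1 library, a setting with 0 members called, SRP19 was at 0.16 and SRPRA at -0.10, and without ZEB1 replicate 2 SRPRA was at -0.37. Across the 16 alternatives run for each, RN7SL1 ran from 0.40 to 1.10 and RN7SL2 from 0.46 to 0.99.

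**Figure D4:**
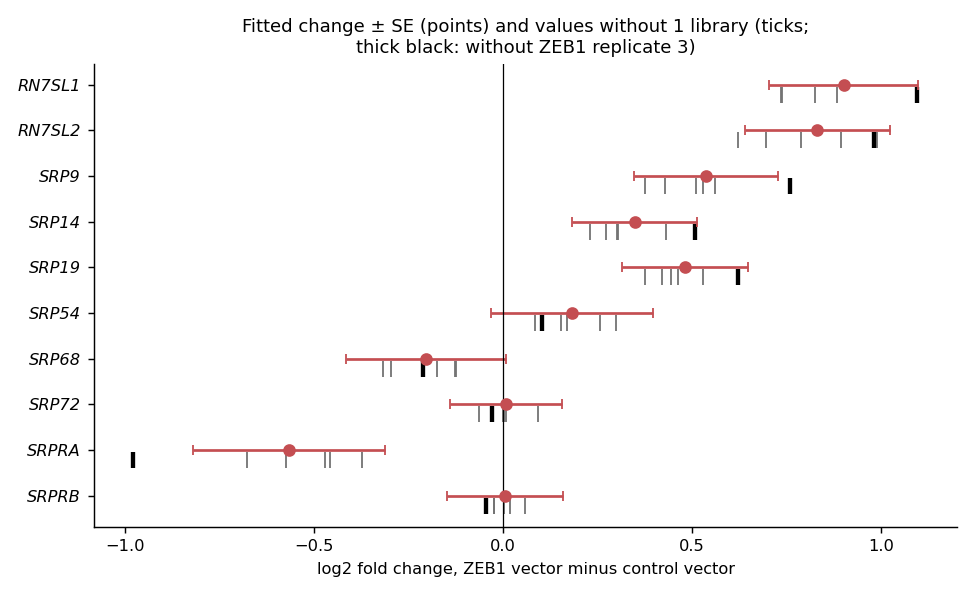
Log2 fold change (ZEB1 vector minus control vector) of each gene from the fit to all 6 libraries (red points, bars ± SE), with grey ticks for fits that leave out 1 library and a thick black tick for the fit without ZEB1 replicate 3. Values run from 0.90 for RN7SL1 to -0.57 for SRPRA. The black tick is the farthest tick from 0 for SRP9 (0.76), SRP14 (0.51), SRP19 (0.62), SRPRA (-0.98) and, narrowly, RN7SL1 (1.10).

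Depth, the ZEB1 level and the share of ribosomal protein mRNA moved along with these differences. ZEB1 made up 1.08%, 1.35% and 0.698% of counts in ZEB1 replicates 1, 2 and 3. The 85 ribosomal protein genes took 23.8%, 20.5% and 17.9% of counts there and 15.5 to 17.8% in the controls. The libraries with the most 7SL were therefore also the shallowest and the richest in ZEB1 and ribosomal protein counts, and these cannot be told apart.

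Other RNA polymerase III transcripts were examined beside 7SL, since they share its polymerase. How such transcripts were captured in these libraries is not given here. Of 21 listed, 9 had enough counts to be tested. Of these 9, 7 were higher and 2 lower, with a median log2 fold change of 0.89 against -0.01 over all genes. That median is the value of RN7SK (SE 0.41). None passed the edgeR threshold, and 4 were higher at an unadjusted p under 0.05. Over all genes tested, 5.83% were higher and 3.57% lower at that p, the shares to set beside the later lists too. In 0 of the 9 did all ZEB1 libraries lie above all controls, against 6.96% of all genes tested. Of the 9 tested, 4 had a mean count under 30, among them RMRP at 8.83.

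The best counted of them was BCYRN1, which encodes the BC200 RNA, an Alu-derived transcript that also binds SRP9 and SRP14. Its control level was 256, 353 and 271 CPM, and ZEB1 replicates 1, 2 and 3 gave 954, 611 and 334 CPM. Replicates 1 and 2 were far above the controls and replicate 3 was among them, with a log2 fold change of 1.10 (SE 0.25, edgeR adjusted p = 0.161). BCYRN1 lies within the span of EPCAM-DT, which also has a row in the count table, so reads of the overlap are uncertain. RN7SK, the RNA that holds the kinase P-TEFb inactive, had 8.98, 39.9 and 43.2 CPM in the controls and 84.4, 53.4 and 36.9 CPM with ZEB1, with overlapping groups. RPPH1, the RNA of RNase P, had 34.3, 35.5 and 37.7 CPM in the controls and 82.6, 59.2 and 32.8 CPM with ZEB1, where replicate 3 was the lowest of all libraries.

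The genes of RNA polymerase III and its factors, which make these transcripts, had a lower median. Of 29 tested, 7 were higher and 22 lower, with a median of -0.13, and none passed in edgeR (unadjusted p under 0.05 in 1 higher and 1 lower gene). SNAPC1 and BDP1, the best counted, had log2 fold changes of 0.04 and -0.20. GTF3C6, a TFIIIC subunit, had 0.57 (SE 0.21), and POLR3A, the largest subunit of the polymerase, -0.51 (SE 0.22). Among 15 genes listed for 7SL processing and for 7SL binding outside SRP, 11 were higher and 4 lower. Their median was 0.13, with no edgeR call (3 higher at an unadjusted p under 0.05). SSB, the La protein that binds the ends of new polymerase III transcripts, had 0.25 (SE 0.15). APOBEC3G, a cytidine deaminase known to bind 7SL, had 0.88 (SE 0.36) at a mean count of 59. NOP10, which the list also holds though no tie to 7SL is shown here, had 0.65 (SE 0.20), with overlapping groups.

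Downstream of SRP, the ER translocon list had 9 of 17 tested genes higher and 8 lower, with a median of 0.10, no edgeR call and 4 genes higher at an unadjusted p under 0.05. SEC61G, a subunit of the channel, had 245, 265 and 256 CPM in the controls and 439.8, 374 and 282 CPM with ZEB1, with no overlap and a log2 fold change of 0.51 (SE 0.16). TRAM1, which helps nascent chains enter the membrane, had 0.51 (SE 0.18). SSR4 and SEC62, the best counted, had 0.27 and -0.13. Signal peptidase and oligosaccharyltransferase genes, which cut and glycosylate the arriving chain, were higher in 12 of 18 with a median of 0.22, again without an edgeR call. At an unadjusted p under 0.05, 6 of the 18 were higher, against 5.83% of all genes tested, and 48.5% of all genes were higher at any p. OSTC had 0.61 (SE 0.20), SPCS1 0.55 (SE 0.18) and RPN2 -0.07. HM13, which the list also holds though it is part of neither enzyme, had -0.19.

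Genes of ER targeting without SRP were higher in 9 of 17 and lower in 8, with a median of 0.05 and no edgeR call (2 higher at an unadjusted p under 0.05). EMC4 and EMC2, subunits of a membrane protein insertase, had 0.57 (SE 0.20) and 0.52 (SE 0.24). BAG6, which hands tail-anchored proteins on, had -0.28, and GET3, the ATPase of that route, 0.06. Among 11 genes listed as partners of the nascent chain on the ribosome 10 were higher, some only slightly (METAP2 at 0.009). The list median was 0.10, with no edgeR call (2 higher at an unadjusted p under 0.05). NACA, whose product limits SRP to ribosomes with a signal sequence, had 442, 473 and 518 CPM in the controls and 784, 652 and 564 CPM with ZEB1. Its groups did not overlap, and the log2 fold change was 0.48 (SE 0.15). BTF3, its partner, had 0.31 and BTF3L4 0.48. RACK1, which the list also holds though it is a ribosomal scaffold protein, had 0.16.

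The clients of the pathway had a median below that of all genes. Of 25 abundant secreted and membrane proteins with signal sequences or signal anchors, 4 were higher and 21 lower, with a median of -0.16 and no edgeR call. Over all 11329 genes tested, 5494 were higher and 5835 lower. Among the 25 clients, 0 higher genes and 6 lower genes had an unadjusted edgeR p under 0.05, against 5.83% and 3.57% of all genes. COL6A1, a collagen VI chain, had -0.52 (SE 0.17), TIMP1 -0.13 and the tetraspanin CD63 0.27. With library size as the only scaling the median of all genes moved by -0.13, and 3 list medians turned below 0, the ER translocon to -0.04, targeting without SRP to -0.08 and the nascent chain partners to -0.02. Relative to all genes, the translocon list stood at 0.11 and the nascent chain list at 0.12 under either scaling.

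**Figure D5:**
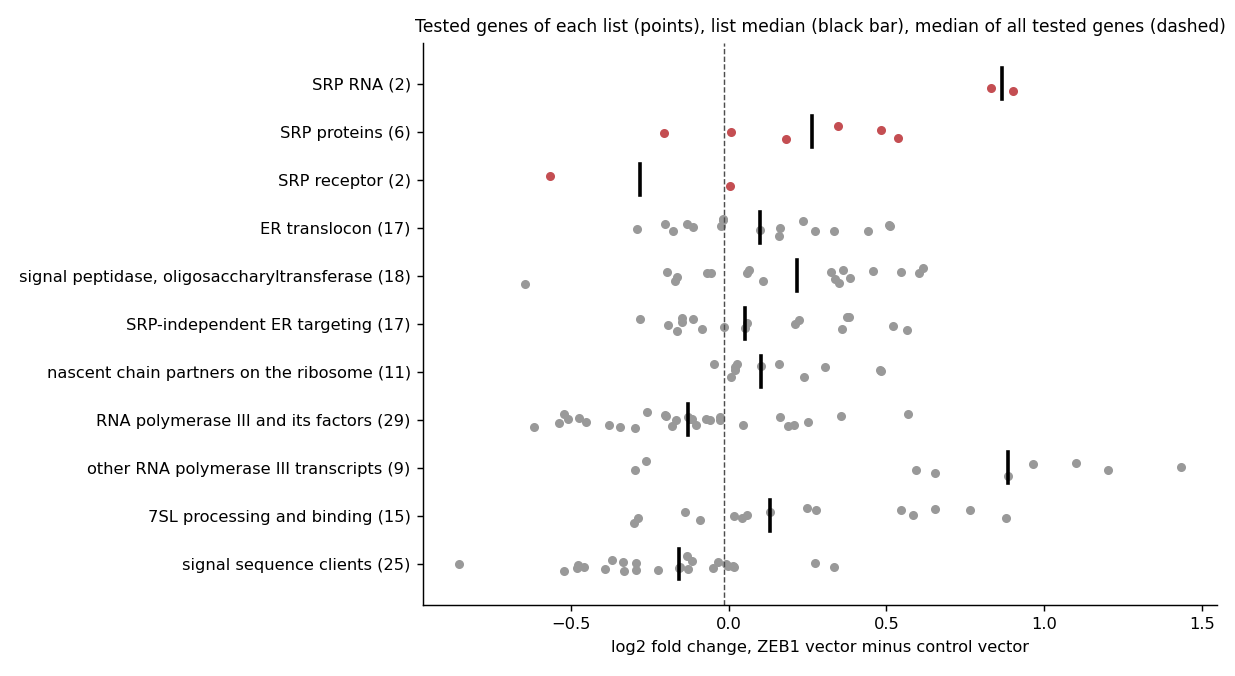
Log2 fold changes (horizontal axis, ZEB1 vector minus control vector) of the tested genes in each list, with the number tested in brackets, list medians as black bars and the median of all tested genes, -0.01, as a dashed line. The 7SL genes and the other RNA polymerase III transcripts have medians of 0.87 and 0.89, and the signal sequence clients have -0.16.

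Over the 8 protein-coding members the median log2 fold change was 0.10, with 6 higher and 2 lower, against -0.01 and 48.5% higher over all genes. With library size as the only scaling it was -0.03, while relative to all genes it stayed at 0.11. SRP72 and SRPRB, counted among the 6 higher at only 0.008 and 0.004, fell below 0 with library size alone, at -0.12 each. No direction is therefore given for them.

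Across the 6 libraries, SRP9, SRP14 and SRP19 kept close company, with Pearson correlations of log2 CPM of 0.96 for SRP9 with SRP14, 0.97 for SRP9 with SRP19 and 0.94 for SRP14 with SRP19. RN7SL1 and RN7SL2 had 0.97, a value that reads matching both copies may have raised, which was not tested. Depth and ZEB1 level also differed among these libraries, and the values are descriptions over 6 points in 2 groups. Among 5631 well-counted genes (mean count 100 or more), those most like RN7SL1 were COA1 (0.998), LSM7 (0.991) and ANXA1 (0.990). For RN7SL2 they were MRPL36 (0.993), CDYL (0.991) and PSAT1 (0.991), and for the sum of the SRP protein genes UBE2V2 (0.998), SNHG19 (0.994) and GGH (0.990). With 6 points, many genes reach such values.

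RefSeq promoter windows (GRCh38.p14), which run from 250 bases before to 50 bases after a gene start, were at hand for 7 of the 10 members, in 9 windows. ZEB1 is known to bind E-boxes of the form CAGGTG. Searched on both strands, where the reverse strand reads CACCTG, this motif was held by 20.6% of all 35116 windows. Of the 7 members with a window, SRP19 alone held one, at position -77 from its start. RN7SL1, RN7SL2 and SRPRA had no window and were not searched. The stretch is shown because SRP19 is the protein-coding member whose groups did not overlap, a choice made with this contrast known. Any link of the motif to the level of SRP19 was not tested. The stretch runs on the plus strand over chr5:112861198-112861227, with the E-box in capitals.
SRP19: ggcgccgagcgaCAGGTGccggaacaaaca

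The match is of letters only, and no binding was measured. TTCCGG, the core of the ETS factor motif (CCGGAA on the other strand), occurred in 6 of the 9 windows and in 17.2% of all windows. These windows belong to 5 of the 7 members: SRP14, SRP19, SRP54, SRP68 and SRP72. Windows of SRP14 overlap and hold the same match, which was thus counted more than once. In SRP19 one such match began at position -71, directly after the E-box. Besides the 7SL genes, SRP14, SRP19, SRP68, SRPRA and SRPRB were overlapped by other annotated genes in the RefSeq table, of which REEP5 (overlapping SRP19) was at 64.4 ± 7.17 CPM after the control vector and 67.8 ± 2.59 CPM after the ZEB1 vector (SD, n = 3 each). FAM118B, which overlaps SRPRA, had 18.8 ± 6.29 and 22.2 ± 12.4 CPM (SD, n = 3 each). Reads of such overlaps cannot be told apart without strand. Counts of SRP14-DT, a divergent transcript at SRP14, were 31, 14 and 14 after the control vector and 12, 0 and 5 after the ZEB1 vector, too few to compare.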

How the data were processed

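RNA of 6 TC28a2 libraries, 3 per vector, was profiled by DRUG-seq. The authors deposited raw counts per Entrez gene ID, and HISAT2, Subread, featureCounts and GRCh38 are named in the submitters' processing notes. For strand, reads with several matches and molecular identifiers, the settings used are not given here by any label or header. The RefSeq table of GRCh38.p14 matched 27725 IDs and left 670 unmatched. Total counts ran from 1277632 to 5878640, so that 3 counts, the detection floor used, equal 0.510 to 2.35 CPM depending on the library.

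Counts were fitted with edgeR 4.0.16 in R 4.3.3 (quasi-likelihood test, robust, TMM, filterByExpr, group as the only term), with two-sided p-values and Benjamini-Hochberg adjustment over all genes tested. Standard errors were derived from the fold change and F statistic and are approximate. Log2 CPM used a prior count of 2. DESeq2 1.42.0 and limma 3.58.1 were alternatives, beside other factors and filters, thinning, a replicate block and leaving out libraries. Leaving out ZEB1 replicates 1 and 2 together was added after seeing the data. The fits were tested on simulated data.

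The members and the gene lists were chosen with earlier results of these data known. The rule for named genes took all members, ZEB1, the 2 best counted and the 2 of smallest p from each list, and the 3 genes most correlated with each 7SL gene and with the SRP protein sum. RN7SK, RMRP, RPS29 and the other overlapping genes were added after their values were seen. Transcripts were compared in GENCODE v29, and the promoter stretch came from the RefSeq promoter table. The 7SL and BCYRN1 sequences and 1 gene that the rule took from the client list are not reported here.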

Additional observations from a re-analysis of the deposited data

How the results depend on the processing

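Over the 10 genes, 155 of 168 values under the alternatives kept the direction of the fit to all libraries, and 13 did not. SRP72 turned to -0.12 with library size alone, -0.015 with no low-count filter, and -0.0013, -0.063 and -0.030 without control replicate 3, ZEB1 replicate 2 and ZEB1 replicate 3 (range over single left-out libraries -0.063 to 0.093). SRPRB turned to -0.12 with library size alone, -0.019 with no filter, -0.0018 with the replicate block, and -0.024, -0.024 and -0.046 without control replicate 1, ZEB1 replicate 2 and ZEB1 replicate 3 (range -0.046 to 0.059). Without ZEB1 replicates 1 and 2 together, SRP9 stood at -0.010 and SRP14 at -0.053. RN7SL1, RN7SL2, SRP19, SRP54, SRP68 and SRPRA kept their direction in every alternative run.

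Genes past an adjusted p of 0.05 numbered 1 in edgeR, 127 with no low-count filter, 174 with DESeq2, 58 with limma-voom, 2 without ZEB1 replicates 1 and 2 together, and 0 with RN7SL1, RN7SL2 and ZEB1 left out of the table, where 1057 had an unadjusted p under 0.05. On leaving out single libraries the count ran from 1 to 409, the latter without ZEB1 replicate 3; the cause was not tested. The replicate block gave 1 call. The replicate numbers share no known origin, and the deviations of same-numbered libraries correlated at -0.075, -0.010 and -0.011.

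The 7SL share of ZEB1 libraries was 0.0864% without replicates 1 and 2. With library size alone the medians of the ER translocon, nascent chain and client lists were -0.038, -0.024 and -0.29, after a shift of all genes by -0.13. Depth limits SRPRA most, at 40 and 47 counts in ZEB1 replicates 1 and 2.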
